A study of Mus musculus with 16 samples.

Results

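The 10 genes described here encode proteins of the lipid droplet and of mitochondrial uncoupling: the perilipins Plin2, Plin3, Plin4 and Plin5, the lipases Pnpla2 and Lipe, the acyltransferases Dgat1 and Dgat2, and the uncoupling proteins Ucp2 and Ucp3. They were chosen by name, and their probes were found by matching the probe accessions of the array to gene symbols. That gave 17 probes for the 10 genes, out of 41174 probes and 17178 named genes on the array. RNA came from the quadriceps, a thigh muscle, of mice, in 4 groups of 4 samples with 1 single-colour Agilent array per sample. The groups were KO mice lacking the transcription factor KLF15 and given 1 intraperitoneal dose of dexamethasone at 2 mg/kg (KO dexamethasone), KO mice given the same volume of vehicle (KO vehicle), and wild-type mice given dexamethasone (WT dexamethasone) or vehicle (WT vehicle), all labelled as 8 h after treatment. Dexamethasone is a synthetic glucocorticoid. The labels name no strain, sex, age or kind of Klf15 allele. The question posed for the series is how muscle transcripts respond to a glucocorticoid and how far that depends on KLF15.

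A lipid droplet is a core of triglyceride under a single layer of phospholipid. Perilipins coat it and govern access of lipases, DGAT enzymes add the last fatty acid to diacylglycerol, and the lipases PNPLA2 (ATGL) and LIPE (hormone-sensitive lipase) remove fatty acids stepwise. In muscle the released fatty acids feed mitochondrial oxidation, and PLIN5 is the perilipin of oxidative tissues, where droplets lie against mitochondria. UCP2 and UCP3 are carriers of the inner mitochondrial membrane, and UCP3 is largely restricted to skeletal muscle and brown fat.

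Levels are log2 of a probe's background-subtracted signal over the 75th percentile of its own array, so 0 marks that percentile, and they compare arrays for 1 probe but not 1 probe with another. Each gene is represented by its brightest probe, and all 10 of these probes were well above background on 16 of 16 arrays, so all 10 members passed the filter on dim probes. Of the spots on an array that were not controls, 66.3 to 80.6% were well above background, and the number of arrays limits the precision. Klf15 itself had 14.8-fold lower signal in KO than in WT quadriceps (exact permutation test over 8 and 8 arrays, two-sided p = 0.0001554, the smallest of 12870 splits), with the highest KO array at 0.64 and the lowest WT array at 2.80. All 5 skeletal muscle markers (Acta1, Ckm, Mb, Des, Ttn) were well above background on every array. Neutrophil markers stood apart on 2 arrays, KO dexamethasone replicate 1 and, in WT, dexamethasone replicate 3, whose median marker deviations were 6.55 and 7.86 log2 units against at most 0.83 on the other arrays. The arrays lay on 8 slides, and arrays of one slide were more alike after removal of the group means (correlations of 0.19 to 0.79 in 11 pairs) than arrays of different slides (median -0.06 in 85 pairs). In whole muscle, fewer cells of a type and less RNA per cell cannot be told apart.

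Dexamethasone raised the same 3 members in both genotypes, the perilipins Plin4 and Plin5 and the uncoupling protein Ucp3, and lowered none. In KO quadriceps 3 of 10 members passed at an adjusted p under 0.05 (limma, Benjamini-Hochberg adjustment over 25189 features), where 10.2% of all features passed and 5.7% of all features passed as higher. In WT quadriceps 3 of 10 passed as well, where 10.7% of all features passed and 5.03% of all features passed as higher. Scaling each array on its median instead made 82.8% of the WT calls rises, against 47.1% in the scaling used here, and moved the median of all features from -0.08 to 0.17. The median member change was 0.71 in KO quadriceps, against 0.08 over all features, and 0.82 in WT quadriceps, against -0.08 over all features. Groups did not overlap for 4 members in KO, all higher (9.2% of all features), and for 5 in WT, all higher (7.66%).

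**Figure D1:**
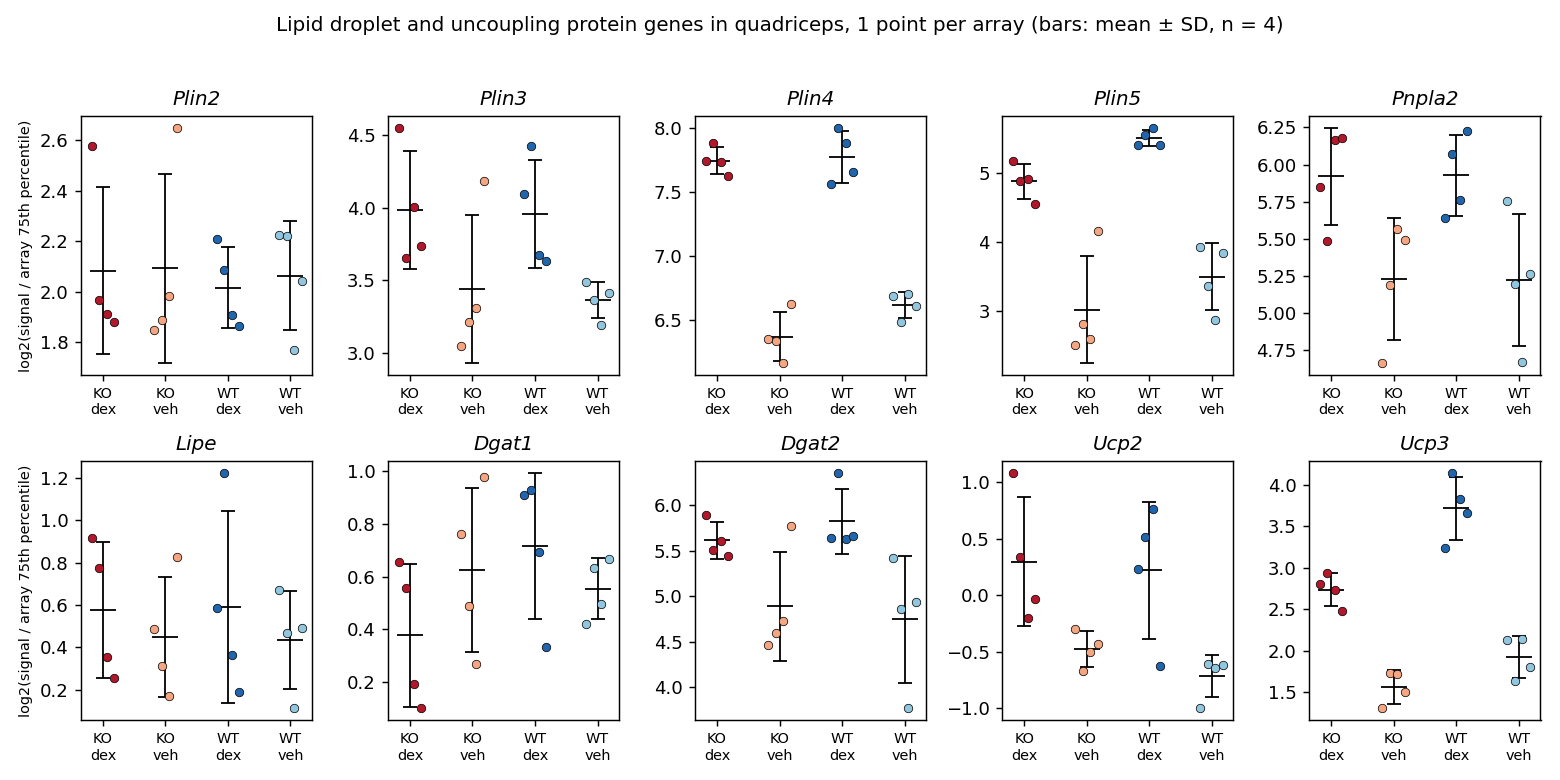
Levels of the 10 members on each array (y axis, log2 of signal over the array's 75th percentile; each panel has its own range), with 1 point per array and bars for mean ± SD of 4 arrays. Plin4, Plin5 and Ucp3 show dexamethasone arrays above all vehicle arrays of the same genotype, and Ucp3 shows the 4 KO dexamethasone arrays, at 2.48 to 2.94, below the 4 WT dexamethasone arrays.

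Plin4, a perilipin of muscle and adipose droplets, had the narrowest spread of the members, with a pooled SD within groups of 0.16. Its level was 7.74, 7.88, 7.74 and 7.63 in KO dexamethasone quadriceps and 6.35, 6.34, 6.16 and 6.63 in KO vehicle quadriceps. It was 7.56, 8.00, 7.88 and 7.66 in WT dexamethasone quadriceps and 6.69, 6.48, 6.70 and 6.61 in WT vehicle quadriceps. All dexamethasone arrays lay above all vehicle arrays. The rise was 2.60-fold in KO (log2 difference 1.38, SE 0.12, limma adjusted p = 9.26e-06) and 2.23-fold in WT (1.16, SE 0.12, limma adjusted p = 6.22e-05). Within slides that held both treatments the difference was 1.12, 1.46 and 1.53 in KO and 1.40 in WT.

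Plin5 had the largest rises of the 10 members in both genotypes. Its level was 5.17, 4.88, 4.91 and 4.55 in KO dexamethasone quadriceps and 2.52, 2.82, 2.60 and 4.16 in KO vehicle quadriceps. It was 5.41, 5.55, 5.65 and 5.41 in WT dexamethasone quadriceps and 3.93, 3.36, 2.87 and 3.84 in WT vehicle quadriceps. KO vehicle replicate 4 stood well above the other 3 arrays of its group but below every KO dexamethasone array. The rise was 3.61-fold in KO (log2 difference 1.85, SE 0.32, limma adjusted p = 0.0022) and 4.01-fold in WT (2.00, SE 0.32, limma adjusted p = 0.0014). Without KO vehicle replicate 4 the KO difference was 2.23. Among 25189 features ranked from the largest rise, Plin5 was number 118 in KO and 73 in WT. Within slides the difference was 1.01, 1.95 and 2.36 in KO and 1.71 in WT; with slide as a fixed block the WT rise was no longer called (1.82, adjusted p = 0.112), and 2 of the 4 WT dexamethasone arrays were alone on their slides.

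Plin4 and Plin5 are adjacent protein-coding genes on chromosome 17 in the RefSeq annotation of assembly GRCm38.p6, with Plin3 on the same chromosome. Their promoter windows are shown because the 2 neighbours rose together. Each runs 5′ to 3′ on the gene's strand, from 250 bases before to 50 bases after the start site (RefSeq, GRCm38.p6). Capitals mark CACCC, the core letters of the box that Krüppel-like factors are known to bind, and AGGTCA. The latter is the hexamer within elements of nuclear receptors such as the PPARs and is not a whole element by itself.
Plin4 chr17:56109733-56110032 (minus strand): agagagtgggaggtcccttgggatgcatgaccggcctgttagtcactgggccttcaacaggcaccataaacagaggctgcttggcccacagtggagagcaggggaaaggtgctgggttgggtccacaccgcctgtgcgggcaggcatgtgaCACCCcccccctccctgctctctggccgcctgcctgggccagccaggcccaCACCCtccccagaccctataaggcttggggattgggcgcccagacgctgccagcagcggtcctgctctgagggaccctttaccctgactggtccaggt
Plin5 chr17:56117499-56117798 (minus strand): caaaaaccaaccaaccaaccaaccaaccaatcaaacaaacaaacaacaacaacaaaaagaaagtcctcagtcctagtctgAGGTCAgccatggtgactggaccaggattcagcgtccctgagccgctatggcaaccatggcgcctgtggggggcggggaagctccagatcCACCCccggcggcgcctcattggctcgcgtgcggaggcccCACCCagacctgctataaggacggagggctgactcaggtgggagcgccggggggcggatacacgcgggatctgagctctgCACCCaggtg

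Counted from the start site, CACCC began at -99 and -48 in the Plin4 window. In the printed Plin5 window it began at -80, -40 and 41, and AGGTCA began at -170. The other Plin5 window, not printed, had CACCC on either strand at -210, -180, -144, -129 and 46, and AGGTCA at 14. RefSeq gave 10 windows for 8 of the members (2 each for Plin5 and Lipe), and Dgat1 and Dgat2 had none in the table. Searched on both strands, CACCC occurred in 8 of the 10 windows and in 57.5% of all 32851 mouse windows of that length. AGGTCA occurred in 4 of the 10 (1 for Plin2, 1 for Ucp3 and both for Plin5) and in 16.3% of all windows. TGTTCT, the hexamer of the glucocorticoid receptor element, occurred in none of the 10 and in 19% of all windows. These are letter matches in a short window and not binding sites.

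The 2 other perilipins gave no call. Plin3 (TIP47), which coats nascent droplets, ranged from 3.65 to 4.55 in KO dexamethasone and from 3.05 to 4.18 in KO vehicle quadriceps, and from 3.63 to 4.42 in WT dexamethasone and from 3.19 to 3.49 in WT vehicle quadriceps. Its differences were 0.55 in KO (SE 0.26, limma adjusted p = 0.252) and 0.59 in WT (SE 0.26, limma adjusted p = 0.180), and only in WT did the groups not overlap. Plin2 (ADRP), the ubiquitous coat protein, differed by -0.01 in KO (95% interval -0.43 to 0.42) and by -0.05 in WT (-0.47 to 0.38), intervals that exclude a rise of the size measured for Plin4 or Plin5.

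Of the lipases, Pnpla2, which takes the first fatty acid from triglyceride, ranged from 5.49 to 6.18 in KO dexamethasone and from 4.66 to 5.56 in KO vehicle quadriceps, and from 5.64 to 6.23 in WT dexamethasone and from 4.67 to 5.75 in WT vehicle quadriceps. The differences were 0.69 in KO (SE 0.25, limma adjusted p = 0.111) and 0.71 in WT (SE 0.25, limma adjusted p = 0.0960), with groups that overlapped. Lipe, which acts on the diacylglycerol that is left, gave 0.13 in KO (95% interval -0.36 to 0.62) and 0.15 in WT (-0.34 to 0.64). Its levels on the 16 arrays ran from 0.11 to 1.22.

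Neither enzyme that completes triglyceride was called. Dgat2 had levels of 5.90, 5.51, 5.61 and 5.45 in KO dexamethasone and 4.46, 4.59, 4.73 and 5.78 in KO vehicle quadriceps. It had 5.64, 6.35, 5.63 and 5.66 in WT dexamethasone and 5.42, 4.86, 3.77 and 4.93 in WT vehicle quadriceps. KO vehicle replicate 4 was the only vehicle array that reached the dexamethasone range of its genotype. The differences were 0.72 in KO (SE 0.34, limma adjusted p = 0.242) and 1.08 in WT (SE 0.34, limma adjusted p = 0.0601). Dgat1 gave -0.25 in KO (SE 0.18, adjusted p = 0.515) and 0.16 in WT (SE 0.18, adjusted p = 0.619), and the test of the difference between genotypes gave -0.41 (adjusted p = 0.547).

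Ucp3 rose in both genotypes. Its level was 2.81, 2.94, 2.73 and 2.48 in KO dexamethasone quadriceps and 1.31, 1.73, 1.72 and 1.50 in KO vehicle quadriceps. It was 3.23, 4.14, 3.83 and 3.66 in WT dexamethasone quadriceps and 2.13, 1.63, 2.14 and 1.80 in WT vehicle quadriceps. All dexamethasone arrays lay above all vehicle arrays, and the 4 KO dexamethasone arrays lay below the 4 WT dexamethasone arrays. The rise was 2.26-fold in KO (log2 difference 1.17, SE 0.19, limma adjusted p = 0.0011) and 3.46-fold in WT (1.79, SE 0.19, limma adjusted p = 7.05e-05). Within slides it was 1.31, 0.76 and 1.63 in KO and 2.34 in WT. The promoter window of Ucp3 is printed for comparison with those of Plin4 and Plin5; AGGTCA, in capitals, begins at -149 and -44, and CACCC is not in the window.
Ucp3 chr7:100472741-100473040 (plus strand): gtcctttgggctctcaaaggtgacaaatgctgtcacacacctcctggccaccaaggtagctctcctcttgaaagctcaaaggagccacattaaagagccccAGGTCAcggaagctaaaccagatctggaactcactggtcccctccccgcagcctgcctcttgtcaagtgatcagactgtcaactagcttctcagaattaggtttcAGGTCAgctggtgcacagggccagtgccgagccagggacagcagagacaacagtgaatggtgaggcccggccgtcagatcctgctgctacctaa

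Ucp2, which lies next to Ucp3 on chromosome 7, moved in the same direction without passing the test. It had levels of 1.08, 0.34, -0.20 and -0.03 in KO dexamethasone and -0.30, -0.68, -0.50 and -0.43 in KO vehicle quadriceps. In WT quadriceps it had 0.23, 0.51, 0.76 and -0.63 with dexamethasone and -0.999, -0.61, -0.64 and -0.62 with vehicle. The groups did not overlap in KO, where the difference was 0.77 (SE 0.29, limma adjusted p = 0.130), and overlapped in WT through dexamethasone replicate 4, where it was 0.94 (SE 0.29, limma adjusted p = 0.0588). The 2 arrays with raised neutrophil markers were the highest of their groups for Ucp2. Without them the differences were 0.51 in KO (limma adjusted p = 0.258) and 0.76 in WT (limma adjusted p = 0.0754).

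**Figure D2:**
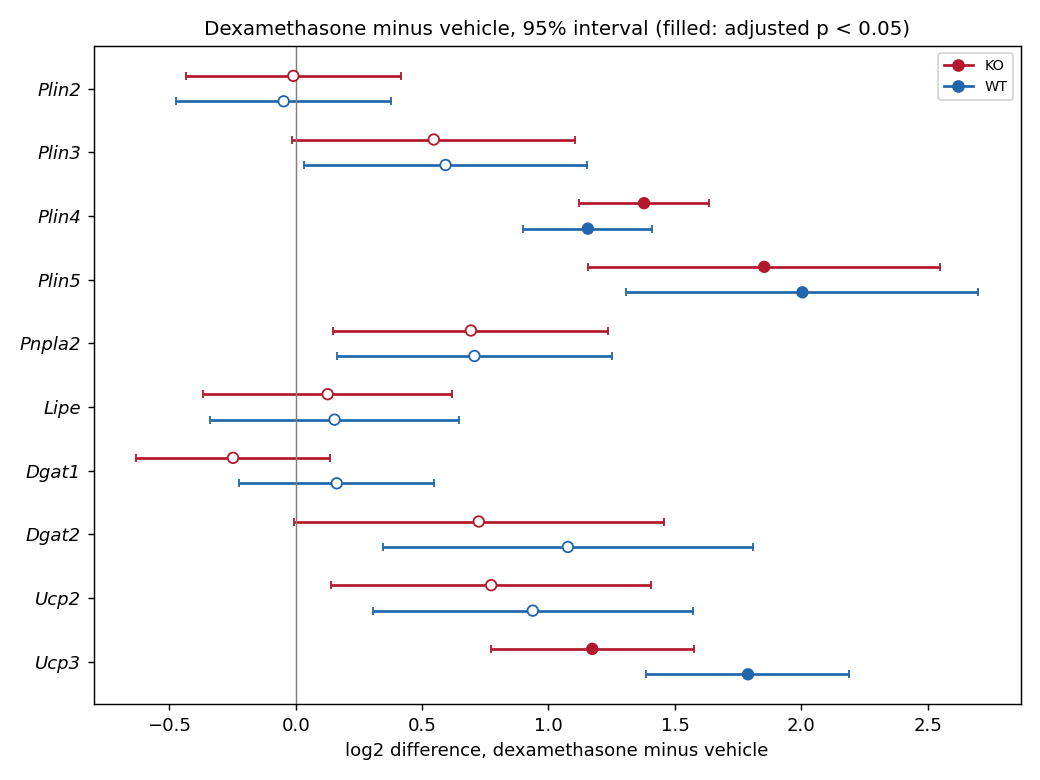
Log2 difference of dexamethasone minus vehicle (x axis) for each member in KO (red, upper) and WT (blue, lower) quadriceps, with 95% intervals and filled points where the adjusted p is under 0.05. Plin4, Plin5 and Ucp3 are filled in both genotypes, while Plin2, Lipe and Dgat1 have intervals that span 0 in both.

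Of the 10 genes, 5 had more than 1 probe, and these were also fitted one by one, with p-values adjusted over all probes. For Pnpla2 the second probe (A_52_P681771) passed in WT (log2 difference 0.84, SE 0.16, limma adjusted p = 0.0039) and not in KO (0.32, limma adjusted p = 0.275), while its brighter probe (A_51_P197213) gave 0.71 in WT and 0.69 in KO and passed in neither. With the mean of a gene's probes in place of the brightest, Pnpla2 passed in KO (0.51, limma adjusted p = 0.0107) and in WT (0.77, limma adjusted p = 7.22e-04). The 3 Dgat2 probes gave 0.72, 0.38 and 0.39 in KO and 1.08, 1.16 and 1.08 in WT, with WT adjusted p-values of 0.0554, 0.0501 and 0.0524. The 2 brighter Ucp2 probes gave 0.77 and 0.75 in KO and 0.94 and 0.62 in WT. The dimmest Ucp2 probe (A_52_P499675) was well above background on 5 of 16 arrays and is not read further. Both Dgat1 probes gave a negative difference in KO (-0.25 and -0.28) and a positive one in WT (0.16 and 0.08). The 2 Lipe probes gave 0.13 and -0.12 in KO and 0.15 and 0.20 in WT.

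**Figure D3:**
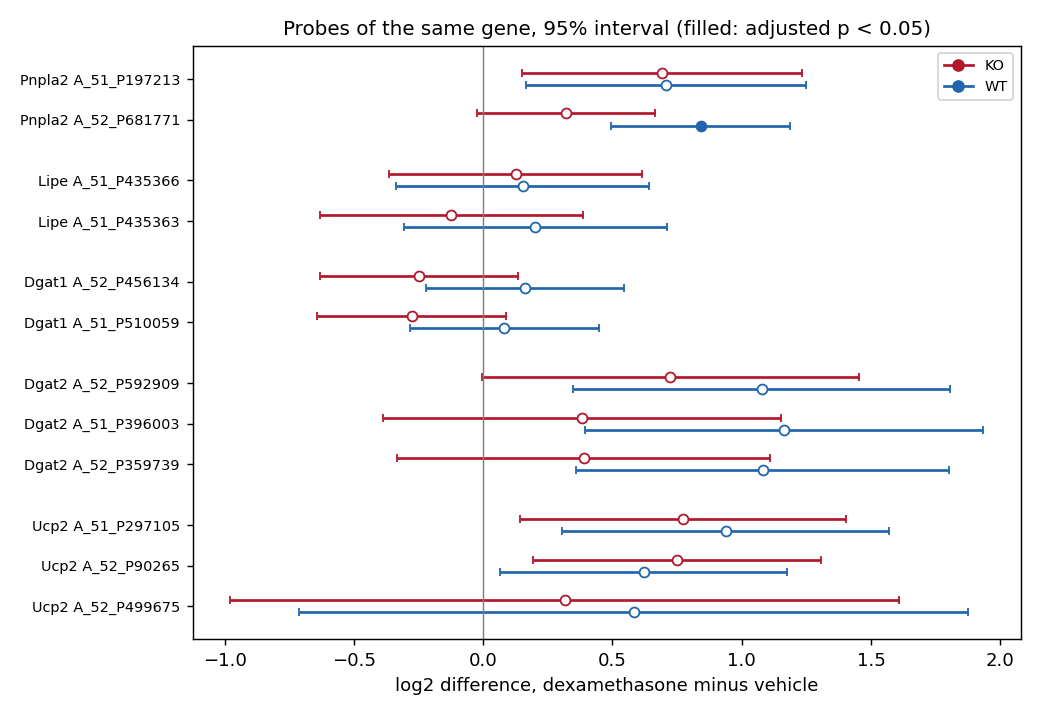
Log2 difference of dexamethasone minus vehicle (x axis) for every probe of the 5 genes with several probes, in KO (red, upper) and WT (blue, lower), with 95% intervals and filled points where the adjusted p over all probes is under 0.05. Only the Pnpla2 probe A_52_P681771 in WT is filled, at 0.84, and the dimmest Ucp2 probe has the widest intervals.

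Between genotypes Ucp3 was the one member called. Under dexamethasone it was 1.97-fold lower in KO than in WT quadriceps (log2 difference -0.98, SE 0.19, limma adjusted p = 0.0149); 1 of 10 members passed, where 1.88% of all features passed and 0.83% of all features passed as lower. On the 1 slide that held both groups the difference was -0.93. Under vehicle it was -0.36 (95% interval -0.77 to 0.04, limma adjusted p = 0.726), and within slides -0.14, -0.41 and -0.84. The average over both treatments was -0.67 (SE 0.13, limma adjusted p = 0.0214), 1.59-fold lower; there too 1 of 10 members passed, where 1.35% of all features passed and 0.977% of all features passed as lower.

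The size of the Ucp3 rise differed between genotypes by -0.62 (KO minus WT, 95% interval -1.18 to -0.05), with a limma adjusted p of 0.403. A smaller rise in KO was therefore not shown after adjustment. No member and 0% of all 25189 features passed that test (limma), and 1 member, Ucp3, had an unadjusted p under 0.05. The call under dexamethasone was lost without KO dexamethasone replicate 4 (-0.89, adjusted p = 0.0520). It was also lost without the 2 arrays with raised neutrophil markers (-0.97, adjusted p = 0.0931), and with slide as a fixed block (-1.21, adjusted p = 0.211). The Ucp3 call averaged over treatments was kept in 22 of 29 alternatives.

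Plin5 was the other member whose dexamethasone arrays did not overlap between genotypes, and it was lower in KO on all 4. The difference was -0.63 (95% interval -1.32 to 0.07, limma adjusted p = 0.428), and it was -0.48 under vehicle (-1.17 to 0.22, adjusted p = 0.813). Of all features, 3.71% were lower in KO under dexamethasone with groups that did not overlap. The average over treatments was -0.55 (adjusted p = 0.372), and -0.74 without KO vehicle replicate 4 (adjusted p = 0.0401). Plin4 differed by -0.03 under dexamethasone (95% interval -0.28 to 0.23) and by -0.25 under vehicle (-0.51 to 0.01). Under vehicle no member passed (limma), none had an unadjusted p under 0.05 on its brightest probe, and 0.266% of all features passed. The differences of the other 7 members ran from -0.34 (Dgat1) to 0.08 (Ucp2) under dexamethasone and, under vehicle, from 0.0076 (Pnpla2) to 0.24 (Ucp2). Those are the brightest probes; under vehicle the second Lipe probe gave 0.56 (unadjusted p = 0.0334, limma adjusted p = 0.575), the second Pnpla2 probe 0.34, and the other Dgat2 probes 0.51 and 0.44.

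**Figure D4:**
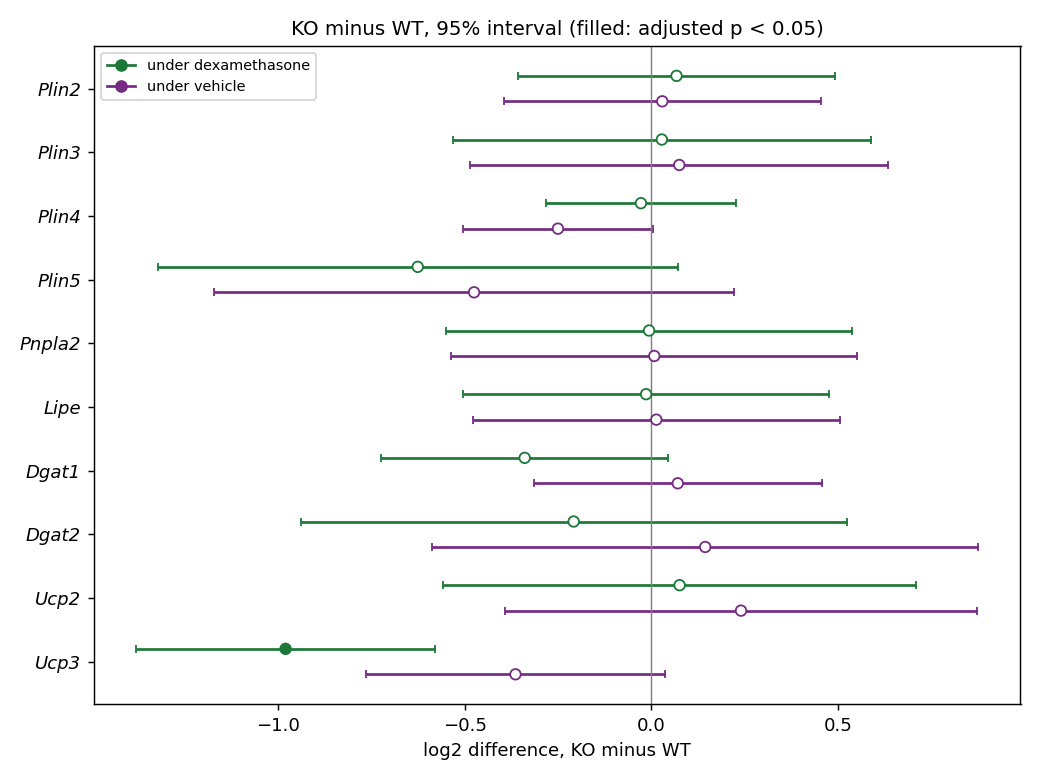
Log2 difference of KO minus WT (x axis) for each member under dexamethasone (green, upper) and under vehicle (purple, lower), with 95% intervals and filled points where the adjusted p is under 0.05. Ucp3 under dexamethasone, at -0.98, is the 1 filled point.

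Members of one group varied together between arrays. KO dexamethasone replicate 1 was the highest of its 4 arrays for 7 of 10 members and KO vehicle replicate 4 for 7 of 10, and both lay on slide 4. The third array of that slide, WT vehicle replicate 2, was the highest of its group for 1 of 10. WT dexamethasone replicate 2 and WT vehicle replicate 1 were each the highest of their group for 6 of 10. Adipocyte markers, of which all 12 were well above background on all 16 arrays, had summed levels (log2) of 8.58 to 9.30 in KO dexamethasone, 8.54 to 9.21 in KO vehicle, 8.01 to 9.17 in WT dexamethasone and 8.42 to 8.69 in WT vehicle quadriceps. KO dexamethasone replicate 1 and KO vehicle replicate 4 held the top of both KO ranges. In WT, vehicle replicate 1 had the lowest summed adipocyte level of its group (8.42), though the highest median deviation (0.08). WT dexamethasone replicate 2, at 8.78, was below replicate 1, at 9.17. Of these 12 markers 1, Lep, rose with dexamethasone in each genotype and none fell. Over all features 5.7% passed as higher in KO and 5.03% in WT. The median changes of the adipocyte markers were 0.01 in KO and -0.03 in WT. Slow-fibre markers (9 of 9 measured) had summed levels of 8.06 to 8.61, 7.35 to 8.31, 8.00 to 8.77 and 7.73 to 8.33 in the same 4 groups, with median changes of 0.44 in KO and 1.38 in WT and no call. By median deviation they were highest of their group on KO dexamethasone replicate 1 (1.40) and KO vehicle replicate 4 (0.78). The same held for WT dexamethasone replicate 2 (2.20) and WT vehicle replicate 1 (0.71). By summed level it held only on these 2 WT arrays. Macrophage markers fell in 2 of 9 genes in KO and 5 of 9 in WT, where 10.2% and 10.7% of all features passed in either direction. Endothelial markers (7 of 7 measured) fell in 4 genes in KO (Tek, Tie1, Kdr and Pecam1, list median -0.40) and in none in WT (median -0.03). The same shares of all features apply to them. The part of these markers in the members' values was not tested. Without KO dexamethasone replicate 1 and KO vehicle replicate 4, Plin4, Plin5 and Ucp3 rose by 1.47, 2.13 and 1.13 in KO, and all 3 stayed past the threshold.

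**Figure D5:**
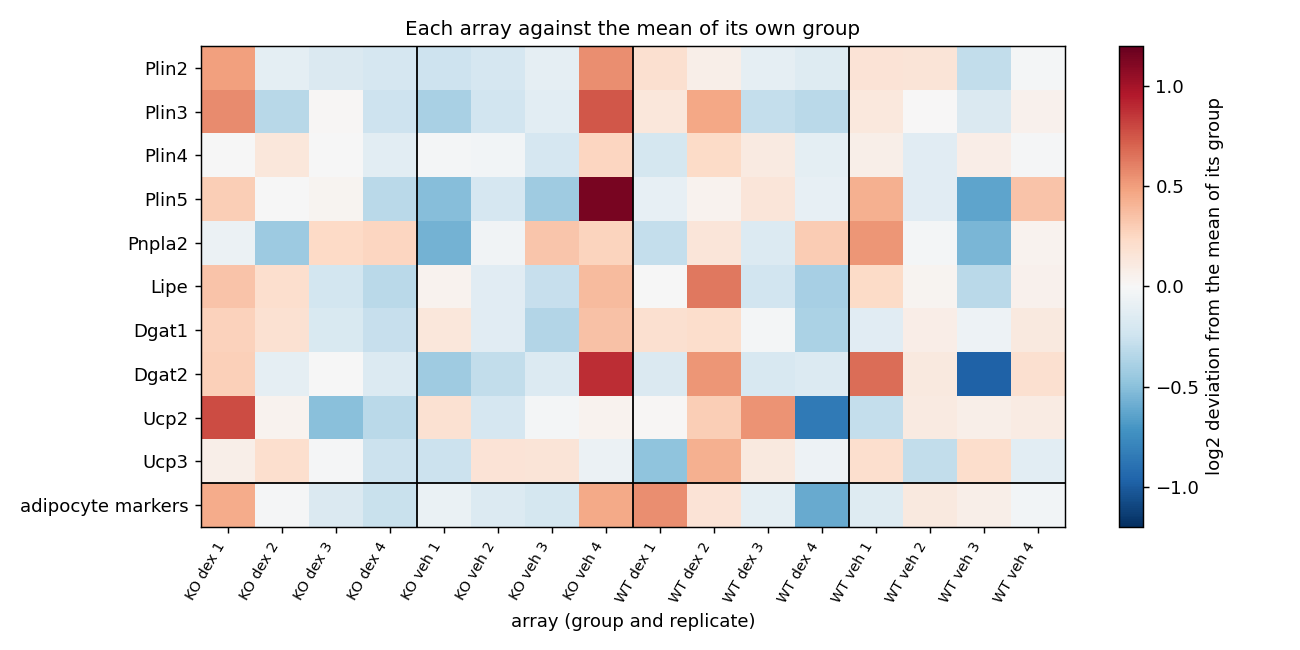
Deviation of each array (columns, grouped by treatment and genotype) from the mean of its own group for each member and for the summed adipocyte markers (colour, log2). KO dexamethasone replicate 1 and KO vehicle replicate 4 show raised Plin2, Plin3, Plin5, Lipe, Dgat1 and Dgat2 together with raised adipocyte markers. WT vehicle replicate 1, the highest of its group for 6 of 10 members, has the lowest summed adipocyte markers of its group.

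Among 44 other genes of triglyceride turnover and mitochondrial carriers, 42 were tested, and Cideb (dim) and Ddhd2 (no probe under that symbol) were not. In KO quadriceps 4 rose and 1 fell with dexamethasone, with a median of 0.11. Over all features 10.2% passed there, 5.7% as higher, and the median was 0.08. In WT quadriceps 6 rose and 1 fell, with a median of 0.05. Over all features 10.7% passed there, 5.03% as higher, and the median was -0.08. Under dexamethasone 1 was higher and 1 lower in KO than in WT, where 1.88% of all features passed. Under vehicle none passed (0.266% of all features). Averaged over treatments 1 was lower in KO (0.977% of all features). These counts shifted with the processing, most under normexp background correction, which left 1 call in each genotype's dexamethasone comparison.

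G0s2, whose product inhibits the lipase PNPLA2, had the smallest adjusted p of them in WT. It had levels of 0.84, 1.37, 0.98 and 0.69 in KO dexamethasone and 0.52, 0.18, 0.29 and 1.06 in KO vehicle quadriceps. It had 2.64, 2.67, 2.69 and 2.17 in WT dexamethasone and 0.89, 0.58, 0.22 and 0.75 in WT vehicle quadriceps. The 4 WT dexamethasone arrays stood above all 12 others. The rise in WT was 3.83-fold (log2 difference 1.94, SE 0.21, limma adjusted p = 9.47e-05), and in KO the difference was 0.46 (limma adjusted p = 0.241). Under dexamethasone G0s2 was 2.98-fold lower in KO than in WT (-1.58, SE 0.21, limma adjusted p = 0.0013). The test of the difference in rise gave -1.48 (SE 0.30, limma adjusted p = 0.169), which did not pass, and -1.49 (adjusted p = 0.0381) with slide as a random block. Averaged over treatments the KO difference was -0.84 (limma adjusted p = 0.0128), a call kept in 25 of 29 alternatives. With slide as a fixed block no G0s2 call was kept. The WT rise was then 1.78 (limma adjusted p = 0.0582) and the genotype difference under dexamethasone -1.33 (limma adjusted p = 0.261). The averaged difference was -0.63 (limma adjusted p = 0.376).

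Acsl3, an acyl-CoA synthetase of the droplet surface, rose in both genotypes, by 1.14 in KO and 0.85 in WT (limma adjusted p = 0.0012 and 0.0091); with slide as a fixed block the WT difference was 0.49 (adjusted p = 0.159). Gpam, a mitochondrial enzyme of the first acylation step, fell by 0.88 in KO (limma adjusted p = 1.55e-04) and by 0.44 in WT (0.0185). Gpat3, another enzyme of that step, rose by 1.47 in WT (limma adjusted p = 0.0092) and gave 0.41 in KO (0.553). Gpat4 rose by 0.53 in KO (limma adjusted p = 0.0019) on its brightest probe, while its 2 other probes gave -0.06 and 0.05. In WT those 2 probes gave 0.38 and 0.41 (limma adjusted p = 0.0922 and 0.0167). The brightest Gpat4 probe passed in WT too, among the 6 related genes called higher there. On it the WT dexamethasone arrays, at 3.82 to 4.12, lay above the WT vehicle arrays, at 3.52 to 3.74. The phosphatidate phosphatase genes Lpin2 and Lpin1 rose in KO by 1.02 and 0.59 (limma adjusted p = 0.0051 and 0.0317), Lpin1 being named after its values were seen. Lpin1 passed in WT as well, among the 6 related genes called higher there. Its WT dexamethasone arrays, at 5.35 to 5.59, lay above the WT vehicle arrays, at 4.51 to 5.23. Its 2 other probes gave 0.68 and 0.62 in KO and 0.40 and 0.67 in WT, the last with a limma adjusted p of 0.0276. The Lpin1 call in KO was lost in 8 of 30 alternatives. Among them were leaving out KO dexamethasone replicate 2 or 3 or KO vehicle replicate 3 or 4 (limma adjusted p of 0.0742 to 0.0962). Slc25a5, an ADP/ATP carrier, rose by 0.58 in WT (limma adjusted p = 0.0093), and gave 0.29 (adjusted p = 0.191) with slide as a fixed block. In KO Slc25a5 was not called, though its dexamethasone arrays, at 4.21 to 4.52, lay above its vehicle arrays, at 3.87 to 4.11. Lpin2 was also 0.89 higher in KO than in WT under dexamethasone (limma adjusted p = 0.0411), a call that 20 of 30 alternative settings did not keep and normexp turned in sign (-0.41). The gene was dim, with levels from -5.69 to -3.77. The lowest values well above background lay at -6.73 to -5.74, depending on the array. WT vehicle replicate 1 was not well above background for Lpin2. Its rise in KO ran from 0.48 to 1.11 over the alternatives and was called in 29 of 30.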

How the data were processed

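RNA from 16 quadriceps samples was analysed, 1 array each. Per the file headers, the deposited spot intensity values come from Feature Extraction 10.7.3.1 and were background-subtracted without normalization between arrays. The authors also deposited log2 values for the whole series, used as an alternative; the labels do not state how they were normalized. Per the labels' protocols, amplified cDNA was labelled with Cy3.

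Control and outlier spots were left out, spots of a probe averaged, and the 75th percentile of each array subtracted on the log2 scale. A probe was kept if at least 4 of 16 arrays had it well above background, and the brightest probe represented its gene. A RefSeq table of GRCm38.p6 gave a symbol to 24844 of the 26382 probes with a RefSeq accession. In R 4.3.3, limma 3.58.1 was fitted to 4 group means with eBayes (two-sided, Benjamini-Hochberg adjustment over 25189 features, threshold 0.05), after being tested on simulated data. There were 6 contrasts: the dexamethasone effect in KO and in WT, the genotype difference with dexamethasone, with vehicle and averaged, and the interaction.

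Groups and replicate numbers came from sample titles. The numbers did not pair samples (correlations of -0.66 to 0.66 over 24 same-number pairs, 5 above 0.1), so the fit has no replicate block. Slide is not in the main fit either, which treats arrays of one slide as independent. The consensus correlation within slides was 0.574, and for 10 arrays the closest array of another group was on the same slide. Slide blocks are among the alternatives. The labels do not say that the samples of a group came from separate animals, so p-values measure the spread between samples, which may be technical. The genes and lists were chosen with earlier results of these data known. Genes named are all members, Klf15, and up to 4 related genes with the smallest p per comparison.

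Alternatives were normexp correction, median or quantile scaling, the deposited table, the filter and probe rule, slide or replicate number as a block, the groups in the fit, and arrays left out.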

Additional observations from a re-analysis of the deposited data

Results flagged for a closer look

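In 4 of the 40 gene-by-group sets of 4 arrays, 1 array lay far from the other 3 (Dixon's test at its 95% critical value, which chance passes in about 1 in 20 sets). Dgat2 was at 6.35 on WT dexamethasone replicate 2, against 5.63 to 5.66 on the other 3 arrays of the group. Plin2 was at 2.58 on KO dexamethasone replicate 1, against 1.88 to 1.97, and at 2.65 on KO vehicle replicate 4, against 1.85 to 1.98. These 2 arrays shared a slide with WT vehicle replicate 2 and had the highest summed adipocyte marker levels of the 16, at 9.30 and 9.21. Ucp2 was at -0.999 on WT vehicle replicate 1, against -0.64 to -0.61.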

How the results depend on the processing

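Of the 8 member calls, 5 held under all alternatives: Plin4 and Ucp3 with dexamethasone in both genotypes and Plin5 in KO. No member call reversed. With dexamethasone in WT, 3 members passed; 6 did with median scaling, 6 with slide as a random block, 5 when probes had to be well above background on 12 of 16 arrays, 3 to 5 when 1 array was left out (5 without WT vehicle replicate 1), and 6 without KO vehicle replicate 4 and KO dexamethasone replicate 1, a setting chosen after seeing the data. The members gained were Plin3, Pnpla2, Dgat2 and Ucp2. With slide as a fixed block the WT count fell to 2, as Plin5 was lost (1.82, limma adjusted p = 0.112). With dexamethasone in KO, 3 passed, and 5 did with slide as a fixed or a random block, adding Pnpla2 and Ucp2. One more passed with the mean of a gene's probes (Pnpla2) and without KO vehicle replicate 4 (Plin3, 0.80, adjusted p = 0.0426). For KO against WT under dexamethasone 1 passed; 0 did with normexp, slide as a fixed block, only the 2 groups compared, or without WT dexamethasone replicate 3 and KO dexamethasone replicate 1, and 0 to 1 when 1 array was left out. For the average 1 passed, and 0 did with normexp, median scaling, slide as a fixed block, or without those 2 arrays. The count was 0 to 2 when 1 array was left out (0 without KO dexamethasone replicate 4 or WT vehicle replicate 3, 2 without KO vehicle replicate 4). Without KO vehicle replicate 4 and KO dexamethasone replicate 1 the count for the average stayed at 1, with a different member. Ucp3 was lost (-0.67, limma adjusted p = 0.0810) and Plin5 passed (-0.79, limma adjusted p = 0.0419). The cause was not tested. For Ucp3 the difference under dexamethasone ran from -1.21 to -0.77 and was called in 25 of 30 alternatives. Lpin2 under dexamethasone reversed with normexp (-0.41).

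The replicate number as a block left member counts at 3, 3, 1, 0, 1 and 0 (dexamethasone in KO and in WT, KO against WT under dexamethasone, under vehicle and averaged, interaction). The closest array of another group had the same number for 1 of 16 arrays. The block ended the calls of Lpin2 under dexamethasone (adjusted p = 0.124) and of G0s2 averaged over treatments (-0.84, adjusted p = 0.0546), and for KO against WT averaged it moved the calls over all features to 188, against 339.

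Over all features, calls with dexamethasone ran from 413 (normexp) to 5073 (random slide block) in KO, against 2573, and from 193 to 4042 in WT, against 2694, under the same settings. For KO against WT they ran from 45 to 946 under dexamethasone (473), 17 to 447 under vehicle (67) and 64 to 985 averaged (339), and for the interaction from 0 to 336 (0). Normexp used the median spot signal, since the files hold no mean signal. With 4 arrays a group, a missed threshold does not show equality.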
